A study of Mus musculus with 9 samples.

Results

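Hedgehog signalling links the granulosa cells of an ovarian follicle to the theca cells that form around it, and 9 genes of this axis are described here in granulosa cell RNA of 3 groups of mice. The genes are the granulosa ligands Ihh and Dhh, the pathway genes Ptch1, Gli1 and Hhip, the theca androgen and hormone genes Cyp17a1 and Insl3, and the theca factors Nr2f2 and Bmp4. They were found by symbol among the 56748 gene identifiers of 1 deposited expression table, and all 9 were present. Levels are in FPKM, reads scaled to gene length and library size. A total of 7 of these genes reached 1 FPKM in 3 or more libraries and entered the model, as did 14431 genes in all, which are called the tested genes. Hhip and Insl3 did not reach it and were left out of the model. The genes were chosen by their role and on their FPKM in all 9 libraries, so their levels and differences are given as a description, with no p.

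All mice were wild type C57BL/6 females, and their age is not stated in these sources. The CTX_HCQ group received cyclophosphamide, an alkylating drug that damages ovarian follicles, by injection at 120 mg per kg, and hydroxychloroquine, a drug that accumulates in lysosomes, in an oral dose of 40 mg per kg each day. Hydroxychloroquine was begun 7 days before the injection and continued for 4 weeks after it. The CTX group received the same cyclophosphamide dose alone, and the Control group neither drug. The controls are called vehicle in the design text and untreated in the labels. Granulosa cells were taken from the ovaries without culture, and polyadenylated RNA was sequenced in 3 libraries per group. Whether a library came from 1 mouse or several is not stated in these sources, so the spread between libraries may in part be technical.

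In the growing mouse follicle, granulosa cells secrete the ligands Indian hedgehog and desert hedgehog. The ligands bind the receptor Patched, which releases the membrane protein Smoothened, and GLI transcription factors then switch on targets that include Ptch1, Gli1 and Hhip themselves. The receiving cells are mainly in the surrounding mesenchyme, where theca cells arise that make androgens with the enzyme encoded by Cyp17a1, and granulosa cells turn these androgens into estrogens with aromatase. In a granulosa cell preparation, transcripts of Cyp17a1 and Insl3 are therefore markers of theca cells, while Ihh and Dhh belong to the granulosa cells.

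The 250 bases before the start of transcription of Ihh, Dhh and Insl3 are shown because these are the ligands at the head of the axis and a hormone at its theca end. The sequences are from RefSeq on GRCm38.p6, which is not the build of the deposited values, and are given on the strand of the gene. A RefSeq promoter was matched for 7 of the 9 genes; Gli1 and Cyp17a1 were not matched. The Ihh window is chr1:74951673-74951922 on the minus strand, the Dhh window is chr15:98898541-98898790 on the minus strand, and the Insl3 window is chr8:71689002-71689251 on the plus strand. Capitals mark the core CCACCC of a GLI site or its reverse complement GGGTGG in Ihh and Dhh. In Insl3 they mark the core AAGGTC of a site for the steroidogenic factor SF-1, its reverse complement GACCTT, and the TATA-like run TATAAG.
Ihh: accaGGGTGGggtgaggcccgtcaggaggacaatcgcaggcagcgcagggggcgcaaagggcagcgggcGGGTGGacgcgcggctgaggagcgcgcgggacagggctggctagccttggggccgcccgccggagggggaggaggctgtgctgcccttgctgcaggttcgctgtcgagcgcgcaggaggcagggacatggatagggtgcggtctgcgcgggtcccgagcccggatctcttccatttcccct
Dhh: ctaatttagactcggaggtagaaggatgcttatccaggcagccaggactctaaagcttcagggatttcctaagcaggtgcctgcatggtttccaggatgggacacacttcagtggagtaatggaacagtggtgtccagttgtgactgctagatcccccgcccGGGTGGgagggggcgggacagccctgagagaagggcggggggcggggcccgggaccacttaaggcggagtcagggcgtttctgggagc
Insl3: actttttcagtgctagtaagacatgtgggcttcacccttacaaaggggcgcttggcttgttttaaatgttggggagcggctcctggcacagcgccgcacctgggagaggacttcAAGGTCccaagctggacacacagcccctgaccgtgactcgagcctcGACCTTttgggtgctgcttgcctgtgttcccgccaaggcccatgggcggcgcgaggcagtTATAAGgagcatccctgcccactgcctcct

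None of the 7 windows held the full GLI site GACCACCCA on either strand, which 0.211% of 27025 RefSeq promoters of the same length held, or the full SF-1 site CAAGGTCA, which 1.31% held. The shorter cores were searched after this was seen, and each full site contains its core. The Ihh window held the GLI core at 246 and 181 bases before the start, the Dhh window at 88 bases and the Hhip window at 158 bases, and 27.7% of all promoters held it on either strand. In the Insl3 window the SF-1 core lay at 136 and 90 bases before the start, against 10.7% of all promoters with at least 1 match. TATAAG lay at 30 bases before the Insl3 start, and 6.81% of all promoters held it on either strand. A match describes the letters of the window and is not a binding site. The Ptch1, Nr2f2 and Bmp4 windows held none of these cores.

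The libraries rested on similar depths. Library sizes behind the FPKM ran between 15344536 and 17943279 reads, with the smallest in CTX_HCQ 3, where 13768864 reads were recovered in tested genes. All 12 granulosa markers passed the filter in a summed level of 5230 to 6090 FPKM in CTX_HCQ, 5050 to 7320 in CTX and 4390 to 6500 in Control. CTX 3 stood apart in mitochondrial transcripts, with 28.9% of its FPKM against 11.7% to 17.5% in the other libraries, and in oviduct markers, with a summed 482 FPKM against 77.6 to 179. The oviduct sums were not particular to CTX 3, at 135 to 482 FPKM in CTX, 83.8 to 90.2 in CTX_HCQ and 77.6 to 147 in Control. For 3 of the 6 tested oviduct markers every CTX_HCQ library lay below every CTX library, which held for 4.57% of tested genes. Erythroid markers, 5 globin and heme synthesis genes, summed to 3310 FPKM in Control 3 against 293 to 860 elsewhere.

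Ihh (ENSMUSG00000006538), one of the granulosa ligands, was the most abundant of the 9 genes and averaged highest in CTX_HCQ and lowest in Control. It had 44.2, 105 and 121 FPKM in CTX_HCQ 1, 2 and 3, against 46.2, 79.3 and 74.8 FPKM in CTX 1, 2 and 3 and 52.2, 29.1 and 49.3 FPKM in Control 1, 2 and 3. Both of the libraries above 100 FPKM were CTX_HCQ libraries and the lowest was Control 2, but CTX_HCQ 1 and CTX 1 lay within the Control range, so the groups overlapped. Group means were 90.2 ± 40.6 FPKM in CTX_HCQ, 66.8 ± 18.0 in CTX and 43.5 ± 12.6 in Control (SD, n = 3 each).

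Log2 differences were taken on log2(FPKM + 1), which understates changes of low genes, from 1 model of all 9 libraries. For Ihh they were 0.61 (SE 0.40) for CTX minus Control, 0.34 (SE 0.40) for CTX_HCQ minus CTX and 0.96 (SE 0.40) for CTX_HCQ minus Control. All 3 stayed above 0 in each of 18 alternatives, with the lowest values at 0.35 without Control 2, 0.07 without CTX_HCQ 3 and 0.68 without CTX_HCQ 3. Some of these alternatives cannot change the difference of a gene. They are other filters, a fit of only the 2 groups, a replicate block and leaving out a library of the third group. Ihh was the gene with the largest share of its log2 variance between groups, 41.6%, where the median tested gene had 23.1%. It rested on 1590 to 5670 reads per library and ranked 636th by mean FPKM. The 3 comparisons share groups, so their differences are not independent of each other.

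Dhh (ENSMUSG00000023000), the other ligand, averaged 7.24 FPKM over the 9 libraries, against 66.8 FPKM for Ihh, and varied less. Its levels were 6.69, 8.28 and 9.32 FPKM in CTX_HCQ, against 4.66, 7.53 and 6.7 FPKM in CTX and 6.29, 8.48 and 7.2 FPKM in Control. CTX 1 was the lowest and CTX_HCQ 3 the highest, and the groups overlapped throughout. Means were 8.1 ± 1.32, 6.3 ± 1.47 and 7.32 ± 1.1 FPKM in CTX_HCQ, CTX and Control. The log2 difference was -0.20 (SE 0.20) for CTX minus Control, and -0.03 without CTX 1. It was 0.33 (SE 0.20) for CTX_HCQ minus CTX, with 0.16 without CTX 1, and 0.13 (SE 0.20) for CTX_HCQ minus Control, with 0.03 without CTX_HCQ 3. The annotated Dhh gene overlaps Rhebl1 on the same strand, at 2.21 to 4.85 FPKM, and how shared reads were counted is not stated in these sources.

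Ihh varied more than Dhh, but their ratio depended on both. The ratio of Ihh to Dhh was 6.6, 12.7 and 13.0 in CTX_HCQ, 9.91, 10.5 and 11.2 in CTX, and 8.29, 3.43 and 6.85 in Control. The CTX libraries all lay above the Control libraries in this ratio, whereas CTX_HCQ 1 lay below Control 1 and Control 3. For CTX 1 this rested on its Dhh of 4.66 FPKM, the lowest of all libraries. Its Ihh of 46.2 FPKM lay within the Control range. How often other pairs of genes separate the groups in this way was not counted. Shh, the third hedgehog ligand, had at most 2 reads in any library.

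**Figure D1:**
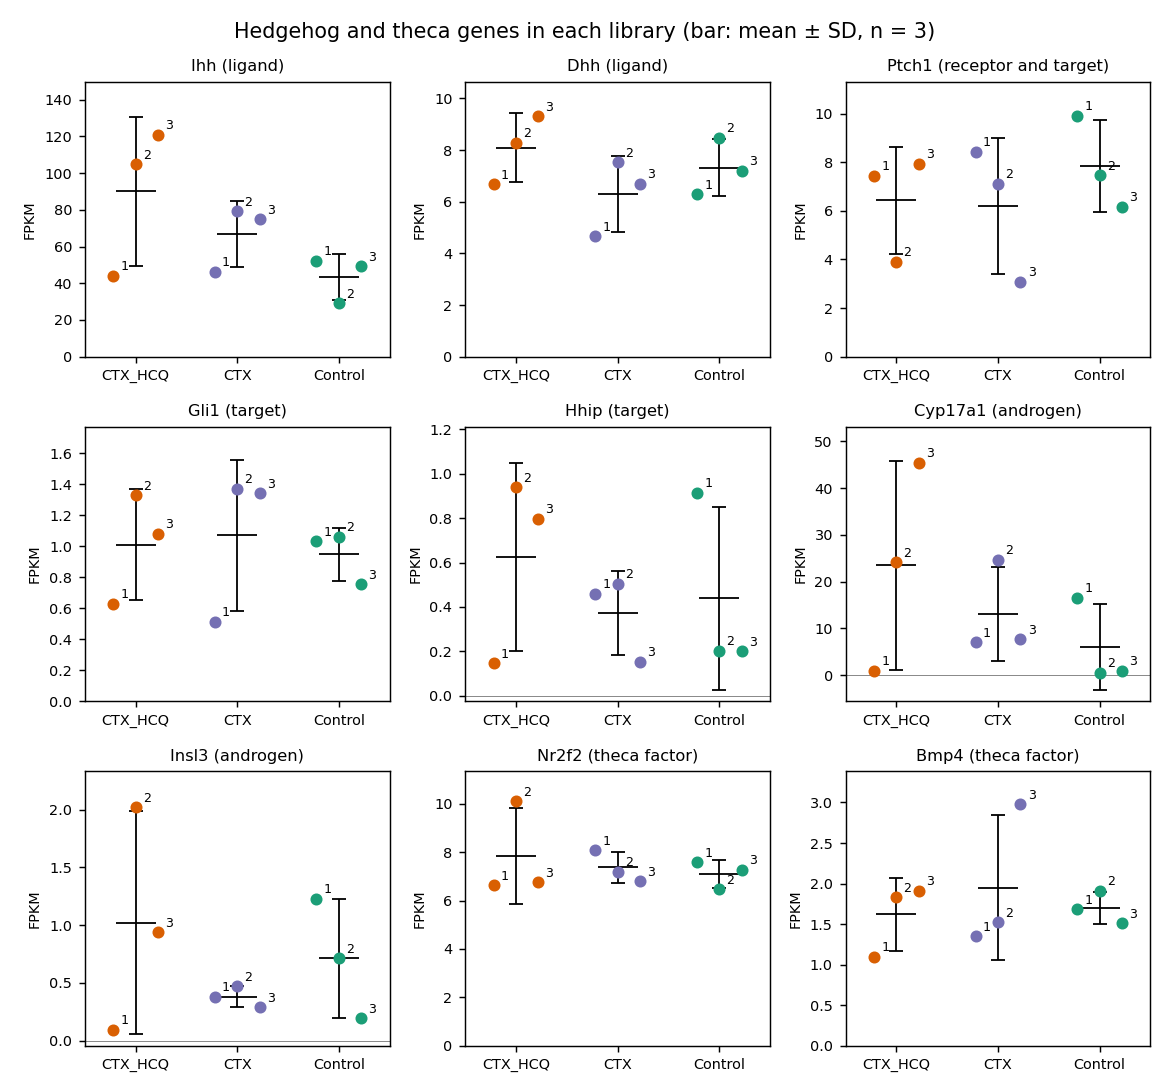
FPKM of each of the 9 genes, 1 panel per gene, with CTX_HCQ, CTX and Control on the horizontal axis. Points are libraries with their replicate number, and bars are the mean ± SD (n = 3). Ihh reached 121 FPKM in CTX_HCQ 3 against 29.1 to 52.2 FPKM in Control, and the groups overlapped for every gene.

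The receptor and target genes did not rank the groups as Ihh did. Ptch1 (ENSMUSG00000021466), which encodes the hedgehog receptor and is a direct GLI target, had 7.44, 3.9 and 7.94 FPKM in CTX_HCQ, against 8.44, 7.11 and 3.08 FPKM in CTX and 9.92, 7.46 and 6.17 FPKM in Control. Its lowest libraries were CTX 3 and CTX_HCQ 2, which had Ihh levels of 74.8 and 105 FPKM, and its highest was Control 1. Means were 6.43 ± 2.2 FPKM in CTX_HCQ, 6.21 ± 2.79 in CTX and 7.85 ± 1.9 in Control.

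The Ptch1 log2 differences were -0.36 (SE 0.34) for CTX minus Control, 0.08 (SE 0.34) for CTX_HCQ minus CTX and -0.28 (SE 0.34) for CTX_HCQ minus Control. A single library carried much of each. The first was 0.01 without CTX 3, the second ran between -0.29 without CTX 3 and 0.36 without CTX_HCQ 2, and the third was -0.01 without CTX_HCQ 2. With both CTX 3 and CTX_HCQ 3 left out, CTX_HCQ minus CTX was -0.44. Depth was not low at 717 to 2388 reads per library.

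Gli1 (ENSMUSG00000025407), the GLI factor that serves as a readout of pathway activity, stood near 1 FPKM. It had 0.628, 1.33 and 1.08 FPKM in CTX_HCQ, 0.512, 1.37 and 1.34 FPKM in CTX, and 1.03, 1.06 and 0.753 FPKM in Control, on 43 to 116 reads per library. The 2 lowest libraries, CTX 1 and CTX_HCQ 1, had Ihh of 46.2 and 44.2 FPKM, within the Control range. Control 2, the lowest in Ihh at 29.1 FPKM, had 1.06 FPKM of Gli1, the highest of Control. The group means of Gli1 differed by less than their spread, at 1.01 ± 0.355 in CTX_HCQ, 1.07 ± 0.486 in CTX and 0.946 ± 0.168 in Control. The log2 differences were 0.07, -0.03 and 0.04 (SE 0.25 each) for CTX minus Control, CTX_HCQ minus CTX and CTX_HCQ minus Control, and 1.41% of the variance of Gli1 lay between groups. Gli1 overlaps Arhgap9 on the opposite strand, at 0.706 to 1.46 FPKM, and whether the counting used strand is not stated in these sources.

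Hhip (ENSMUSG00000064325), a target that binds and holds back hedgehog ligands, stayed below 1 FPKM in every library. The values were 0.146, 0.939 and 0.797 FPKM in CTX_HCQ, against 0.459, 0.505 and 0.154 FPKM in CTX and 0.915, 0.203 and 0.201 FPKM in Control, on 22 to 149 reads. Control 1 stood with CTX_HCQ 2 and CTX_HCQ 3 at the top, and CTX_HCQ 1 at the bottom. The means were 0.627 ± 0.423, 0.373 ± 0.191 and 0.439 ± 0.412 FPKM in CTX_HCQ, CTX and Control, and the groups overlapped.

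Cyp17a1 (ENSMUSG00000003555), the enzyme that turns progestins into androgens in theca cells, varied most of the 9 genes, and chiefly between libraries of 1 group. It had 0.958, 24.2 and 45.4 FPKM in CTX_HCQ 1, 2 and 3, against 7.06, 24.7 and 7.65 FPKM in CTX 1, 2 and 3 and 16.6, 0.584 and 0.986 FPKM in Control 1, 2 and 3. CTX_HCQ 1, Control 2 and Control 3, all below 1 FPKM, stood apart from the other 6, and each low library had a counterpart of its own group above 16 FPKM. Reads numbered 44, 1173 and 1931 in CTX_HCQ, 329, 1162 and 348 in CTX, and 780, 29 and 45 in Control, so the 77.9-fold range lay above the counting error of the low libraries. The SD of Cyp17a1 over the 9 libraries, on the log2 scale, was larger than that of 99.9% of tested genes, and 22.4% of its variance lay between groups.

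Cyp17a1 averaged 23.5 ± 22.3 FPKM in CTX_HCQ, 13.1 ± 10.0 in CTX and 6.05 ± 9.13 in Control. The log2 differences were 1.67 (SE 1.18) for CTX minus Control, 0.12 (SE 1.18) for CTX_HCQ minus CTX and 1.79 (SE 1.18) for CTX_HCQ minus Control. With 1 library left out at a time, the first ran between 1.04 without Control 2 and 2.78 without Control 1. The second ran between -0.79 without CTX_HCQ 3 and 1.495 without CTX_HCQ 1, and the third between 0.88 without CTX_HCQ 3 and 3.17 without CTX_HCQ 1. With both CTX 3 and CTX_HCQ 3 left out, CTX_HCQ minus CTX was -1.03. In these bulk libraries a smaller number of theca cells and less Cyp17a1 RNA per cell cannot be told apart.

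A list of 12 theca and interstitial markers, chiefly genes of stroma and matrix such as Col1a1, Dcn and Mgp, ranked the libraries differently from Cyp17a1. Its sum was led by Aldh1a1, at 90.8 to 227 FPKM, and is a measure of mesenchyme rather than of theca cells alone. The 12 genes, of which 11 were tested and none was at 0 in every library, summed to 355, 530 and 222 FPKM in CTX_HCQ, 373, 327 and 333 FPKM in CTX, and 376, 308 and 298 FPKM in Control. CTX_HCQ 3, the library with the highest Cyp17a1, had the lowest sum. Endothelial markers summed to 29.3, 85.0 and 31.9 FPKM in CTX_HCQ, 90.5, 58.8 and 43.9 in CTX, and 70.4, 23.9 and 24.4 in Control. The 3 libraries with the least Cyp17a1 held 3 of the 4 lowest endothelial sums, and the other was CTX_HCQ 3. Smooth muscle markers summed to 64.3, 210 and 63.3 FPKM in CTX_HCQ, 122, 99.7 and 141 in CTX, and 157, 50.3 and 69.1 in Control. The part of these other cells in the Cyp17a1 levels was not tested.

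**Figure D2:**
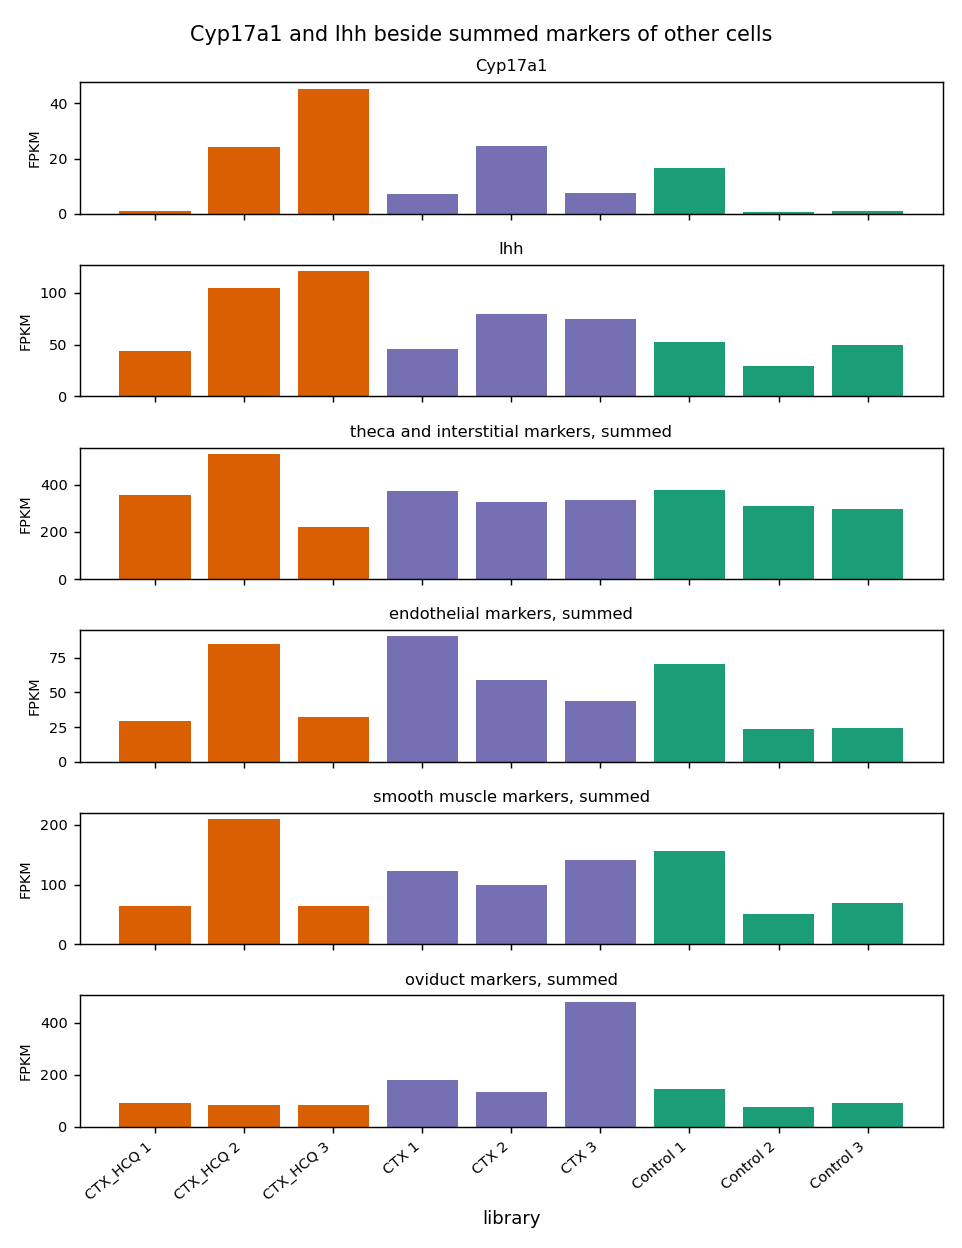
FPKM of Cyp17a1, of Ihh and of 4 marker sums in each library, with CTX_HCQ, CTX and Control libraries along the horizontal axis. Bars are single libraries. CTX_HCQ 3 had 45.4 FPKM of Cyp17a1 and a theca and interstitial marker sum of 222 FPKM, while Control 2 had 0.584 FPKM of Cyp17a1 and a sum of 308 FPKM.

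Insl3 (ENSMUSG00000079019), the insulin-like hormone of theca cells, was near the detection limit. It had 0.0968, 2.02 and 0.941 FPKM in CTX_HCQ, against 0.382, 0.472 and 0.293 FPKM in CTX and 1.23, 0.716 and 0.195 FPKM in Control. These values rested on 1, 22 and 9 reads in CTX_HCQ, 4, 5 and 3 reads in CTX, and 13, 8 and 2 reads in Control. CTX_HCQ 1 and Control 3, both among the 3 libraries low in Cyp17a1, were the lowest, whereas Control 2, the third, had 0.716 FPKM of Insl3. The annotated Insl3 gene overlaps Jak3 on the same strand, and Jak3 stood at 1.77 to 3.12 FPKM. How reads shared by this pair were counted is not stated in these sources.

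Of the theca factors, Nr2f2 varied least of the 9 genes, with an SD of 0.18 on the log2 scale over the 9 libraries, and Bmp4 had an SD of 0.26. Nr2f2 (ENSMUSG00000030551), the nuclear receptor COUP-TFII of theca and stromal cells, had 6.64, 10.1 and 6.76 FPKM in CTX_HCQ, against 8.09, 7.2 and 6.81 FPKM in CTX and 7.58, 6.47 and 7.28 FPKM in Control. The one library apart was CTX_HCQ 2, which also had the highest theca and interstitial marker sum. The log2 differences were 0.05, 0.06 and 0.11 (SE 0.18 each) for CTX minus Control, CTX_HCQ minus CTX and CTX_HCQ minus Control, and without CTX_HCQ 2 the last 2 were -0.12 and -0.07. Bmp4 (ENSMUSG00000021835), a bone morphogenetic protein secreted by theca cells, had 1.1, 1.83 and 1.91 FPKM in CTX_HCQ, 1.35, 1.52 and 2.98 FPKM in CTX, and 1.68, 1.91 and 1.51 FPKM in Control, on 41 to 110 reads. CTX 3 was the highest, and the CTX minus Control difference of 0.09 (SE 0.24) was -0.15 without it. For CTX_HCQ minus CTX the difference was -0.15 (SE 0.24), and 0.09 without CTX 3.

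**Figure D3:**
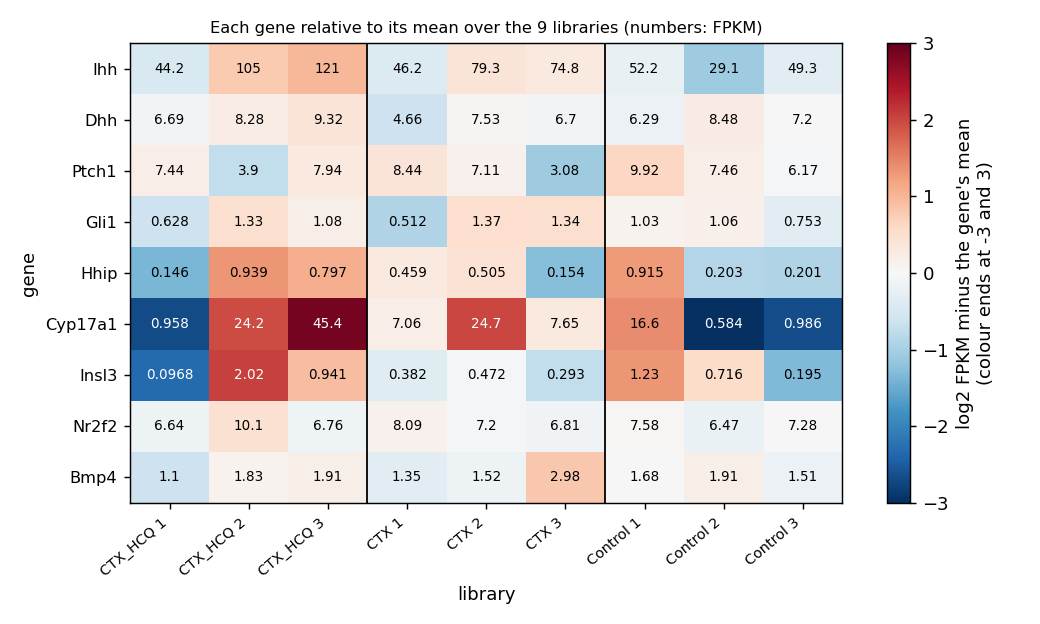
Level of each gene (rows) in each library (columns, CTX_HCQ then CTX then Control) as log2 FPKM minus the mean of that gene over the 9 libraries, with the FPKM printed in the cells. Colours end at -3 and 3. Cyp17a1 had the strongest contrast, from 0.584 to 45.4 FPKM, and Nr2f2 the weakest, from 6.47 to 10.1 FPKM.

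In mean level over the 9 libraries the genes ranked as Ihh (66.8 FPKM), Cyp17a1 (14.2), Nr2f2 (7.44), Dhh (7.24), Ptch1 (6.83), Bmp4 (1.75), Gli1 (1.01), Insl3 (0.705) and Hhip (0.48). Nr2f2, Dhh and Ptch1 lay within each other's spread. Ihh was the highest of the 9 in each library. In every comparison 0 of the 9 genes had groups that did not overlap. Among all tested genes the groups did not overlap for 19.7% between CTX and Control (8.72% higher in CTX, 11.0% lower). The share was 8.02% between CTX_HCQ and CTX (3.45% higher in CTX_HCQ, 4.57% lower) and 6.31% between CTX_HCQ and Control (3.25% higher in CTX_HCQ, 3.06% lower). After adjustment over the 14431 tested genes (limma, Benjamini-Hochberg, 0.05) no gene was called in any comparison, a background of 0%. At an unadjusted p under 0.05 there were 1126, 785 and 312 genes for CTX against Control, CTX_HCQ against CTX and CTX_HCQ against Control with limma, and 1117, 749 and 283 with limma voom on recovered reads, which also called 0.

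None of the genes that release and receive the hedgehog signal passed the test between CTX and Control. Of 15 such genes, 9 were tested, and all 9 had a CTX minus Control difference below 0, with a median of -0.34, where all tested genes had a median of -0.004 and 50.5% below 0. None was called by limma, and the smallest adjusted p was 0.639. This list, as all lists here, was chosen with earlier results of these data known, so its counts are a description. Scube3, Scube1, Gas1 and Smo, given below, are its 4 genes of smallest p in this comparison and add no further evidence. The median ran between -0.47 and -0.28 over 18 alternatives. For 5 of the 9, Disp1, Scube1, Scube3, Smo and Gas1, every CTX library lay below every Control library, which held for 11.0% of tested genes. In the same comparison 8.72% of tested genes were higher in CTX without overlap. The theca and interstitial markers had a median of -0.26, with 4 of 11 tested above 0, 2 lower without overlap and 1 higher without overlap. Markers of the ovarian surface epithelium had a median of -0.27, with 2 of 6 above 0, 3 lower without overlap and 1 higher without overlap. Other short lists also lay to 1 side in this comparison. All 7 tested endothelial markers were above 0 (median 0.82), and all 5 erythroid markers were below 0 (median -1.44). Of smooth muscle markers 7 of 8 were above 0, of oviduct markers 5 of 6, and of granulosa markers 6 of 12. The part of these cells in the hedgehog genes was not tested.

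Scube3, which encodes a secreted protein of the family that helps lipid-bearing hedgehog leave the cell, had 0.867, 1.2 and 1.36 FPKM in CTX, against 1.59, 3.72 and 3.69 FPKM in Control, a log2 difference of -0.85 (SE 0.31, adjusted p = 0.639 by limma). Scube1, of the same family, had 2.89, 5.5 and 5.92 FPKM in CTX and 6.6, 6.96 and 8.47 FPKM in Control, a difference of -0.57 (SE 0.25, adjusted p = 0.639 by limma). Gas1, a surface coreceptor for hedgehog ligands, had 29.5, 28.4 and 13.0 FPKM in CTX against 42.0, 36.3 and 55.3 FPKM in Control, a difference of -0.95 (SE 0.43, adjusted p = 0.639 by limma). Smo, the signal transducer held in check by Patched, had 23.9, 32.4 and 24.0 FPKM in CTX and 35.2, 34.7 and 32.9 FPKM in Control. CTX 1 and CTX 3 carried the lower values of Smo, while CTX 2 was close to Control 3.

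Between CTX_HCQ and CTX, 7 of these 9 genes had a difference above 0, with a median of 0.22 against 0.01 over all tested genes, and none was called. The median was 0.05 without CTX_HCQ 1, 0.05 without CTX 1, 0.11 without CTX_HCQ 3 and 0.41 without CTX_HCQ 2. The CTX libraries enter this comparison and the one with Control with opposite signs. Gpc3, a cell surface proteoglycan that binds hedgehog, had 20.2, 22.4 and 26.4 FPKM in CTX_HCQ and 16.6, 20.6 and 13.8 FPKM in CTX, a difference of 0.43 (SE 0.22, adjusted p = 0.906 by limma). Scube3 had 2.81, 1.08 and 2.79 FPKM in CTX_HCQ, with 1 library at the CTX level. Set against Control, 7 of the 9 genes in CTX_HCQ had a difference below 0 with a median of -0.31, and this median was -0.03 without CTX_HCQ 2.

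Transduction genes behind Smoothened lay on both sides of 0 in CTX. Of 18 genes, 17 were tested, and 8 had a CTX minus Control difference above 0 and 9 below 0, with a median of -0.09 that was 0.04 without CTX 1, while CTX_HCQ minus CTX had 12 above and 5 below, with a median of 0.10. None was called. Sufu, the cytoplasmic inhibitor of GLI factors, had 7.2, 7.04 and 10.6 FPKM in CTX_HCQ, 5.37, 7.68 and 4.65 FPKM in CTX and 8.48, 8.34 and 7.5 FPKM in Control. Its differences were -0.42 (SE 0.21) for CTX minus Control and 0.43 (SE 0.21) for CTX_HCQ minus CTX, with adjusted p of 0.653 and 0.906 by limma. Prkaca, the catalytic subunit of protein kinase A that primes GLI proteins for processing, averaged 44.9 ± 5.02 FPKM in CTX and 56.3 ± 4.35 in Control, without overlap. Of the 17 genes, 1 was lower and 0 were higher in CTX without overlap, where 11.0% and 8.72% of all tested genes were. Gsk3b, a kinase that acts after protein kinase A on GLI proteins, averaged 8.31 ± 2.23 FPKM in CTX and 10.1 ± 0.295 in Control, and Kif3a, a motor needed for the primary cilium, averaged 11.0 ± 3.21 and 9.15 ± 0.784 FPKM in CTX and Control. Gpr161, a ciliary receptor that keeps the pathway off, averaged 2.95 ± 0.895 FPKM in CTX_HCQ and 2.16 ± 0.292 in CTX, without overlap. Between these groups 1 of the 17 genes was higher and 0 were lower in CTX_HCQ without overlap, against 3.45% and 4.57% of all tested genes.

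The other GLI factors were low. Gli2, the main activator, averaged 1.64 ± 0.631 FPKM in CTX_HCQ, 1.46 ± 0.173 in CTX and 1.2 ± 0.444 in Control. Gli3, the main repressor, averaged 0.646 ± 0.0697, 0.496 ± 0.162 and 0.524 ± 0.0784 FPKM in CTX_HCQ, CTX and Control and did not pass the filter.

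Of 12 genes described as GLI targets in mouse mesenchyme, 5 were tested, with 3 above and 2 below 0 for CTX minus Control and none called. Snai1, a transcription factor of mesenchymal change, had 5.32, 5.59 and 3.27 FPKM in CTX and 5.34, 2.27 and 2.36 FPKM in Control. Mycn, a proliferation factor, had 12.4, 16.0 and 20.0 FPKM in CTX_HCQ, 10.1, 12.9 and 10.7 FPKM in CTX and 14.2, 8.2 and 9.61 FPKM in Control, and its difference for CTX_HCQ minus CTX was 0.47 (SE 0.24, adjusted p = 0.906 by limma). Ccnd1, which encodes the cell cycle protein cyclin D1, averaged 1.28 ± 0.194 FPKM in CTX_HCQ, 2.02 ± 0.402 in CTX and 1.6 ± 0.795 in Control. Ccnd2, the cyclin D2 gene abundant in granulosa cells, averaged 28.6 ± 12.6 FPKM in CTX and 35.9 ± 4.75 in Control. Foxf1 and Prdm1, also on this list, reached at most 1.21 and 1.02 FPKM. Taking the 3 hedgehog lists as 1, 31 of 44 genes were tested, with 11 above and 20 below 0 for CTX minus Control. Of all tested genes 50.5% were below 0, and the 20 include all 9 release and reception genes. For CTX_HCQ minus CTX 21 lay above and 10 below 0, where 47.8% of all tested genes were below 0. Both comparisons share the CTX libraries.

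**Figure D4:**
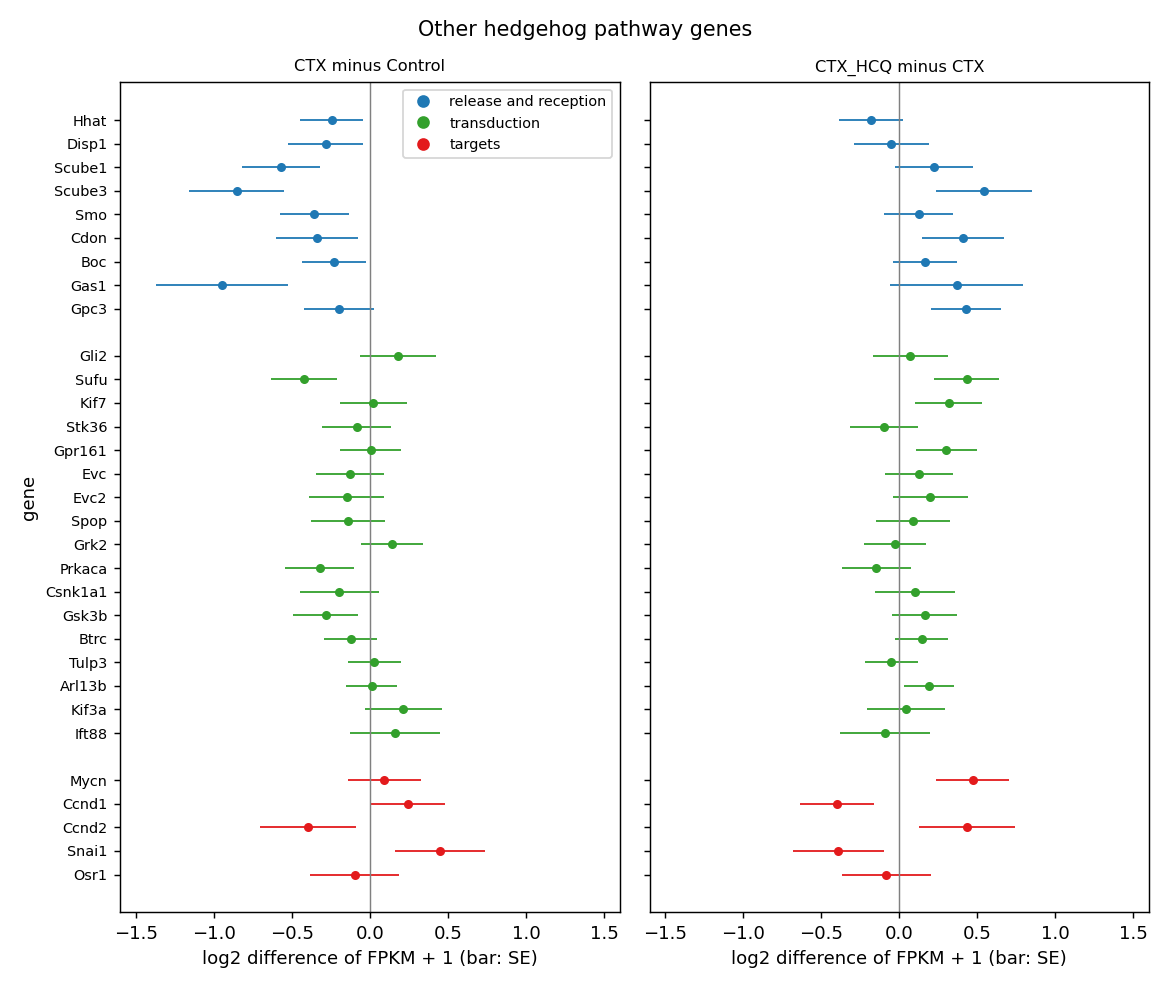
Log2 differences of FPKM + 1 for the 31 tested hedgehog pathway genes other than the 9, on the left for CTX minus Control and on the right for CTX_HCQ minus CTX. Points are the fitted differences and bars their SE; both panels share the CTX libraries. All 9 release and reception genes lie below 0 on the left, and none of the differences passed the test.

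Other genes of steroid synthesis, many of them shared by theca, luteal and granulosa cells, lay on both sides of 0 in CTX. All 13 were tested; 7 lay above and 6 below 0 for CTX minus Control, with a median of 0.08, and none was called. Cyp11a1, which makes pregnenolone from cholesterol, had 1310, 1100 and 479 FPKM in CTX_HCQ, 1670, 1200 and 707 FPKM in CTX and 1320, 1090 and 1330 FPKM in Control. The ratio of Cyp17a1 to Cyp11a1 was 0.0949 in CTX_HCQ 3, where Cyp11a1 was lowest, and 0.000536 in Control 2. Star, the carrier of cholesterol into mitochondria, had 192, 149 and 42.7 FPKM in CTX_HCQ, 151, 179 and 137 FPKM in CTX and 152, 148 and 141 FPKM in Control. CTX_HCQ 3 was thus the lowest library for Cyp11a1 and Star and the highest for Cyp17a1.

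Hsd3b1, which acts beside Cyp17a1 on pregnenolone, had 2760, 4170 and 1850 FPKM in CTX_HCQ, 5660, 4460 and 4640 FPKM in CTX and 4350, 2010 and 2500 FPKM in Control. Every CTX library lay above the others for Hsd3b1, with a CTX minus Control difference of 0.81 (SE 0.47, adjusted p = 0.653 by limma). Cyb5a, the cytochrome that favours the androgen-forming step of the Cyp17a1 enzyme, had 124, 108 and 188 FPKM in CTX and 93.5, 87.9 and 74.2 FPKM in Control, without overlap, a difference of 0.67 (SE 0.32, adjusted p = 0.652 by limma). Groups without overlap on the higher side made up 8.72% of tested genes and 3 of these 13, the third being Nr5a1, the SF-1 gene, at 51.3 ± 4.04 FPKM in CTX and 44.3 ± 3.07 in Control. Por, the electron donor of Cyp17a1, averaged 36.2 ± 6.8 FPKM in CTX and 50.7 ± 10.1 in Control. Lhcgr, the luteinizing hormone receptor that drives theca androgen synthesis, averaged 83.2 ± 25.0 FPKM in CTX_HCQ, 173 ± 80.3 in CTX and 150 ± 89.5 in Control, with a CTX_HCQ minus CTX difference of -0.995 (SE 0.45, adjusted p = 0.906 by limma). Gata4, a factor of granulosa and theca steroid genes, averaged 73.5 ± 17.6 FPKM in CTX_HCQ and 50.5 ± 10.4 in CTX, without overlap. Between these groups 1 of the 13 genes was higher and 1 lower in CTX_HCQ without overlap, against 3.45% and 4.57% of all tested genes.

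Genes that act on theca products were tested for 5 of 8, and none was called. Cyp19a1, the aromatase gene, had 11.1, 23.3 and 35.2 FPKM in CTX_HCQ, 20.2, 37.6 and 7.93 FPKM in CTX and 10.1, 5.0 and 10.5 FPKM in Control, with a CTX minus Control difference of 1.09 (SE 0.54, adjusted p = 0.653 by limma). Within each group Cyp19a1 and Cyp17a1 had their highest libraries in CTX_HCQ 3 and CTX 2, but not the same one in Control. Akr1c14, which reduces steroid hormones, averaged 101 ± 25.3 FPKM in CTX_HCQ, 165 ± 30.6 in CTX and 96.2 ± 59.2 in Control. Hsd17b1, the granulosa enzyme that forms estradiol, averaged 359 ± 9.83 FPKM in CTX_HCQ, 389 ± 93.3 in CTX and 282 ± 18.9 in Control. Rxfp2, the receptor of the Insl3 hormone, had at most 5 reads in any library.

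Around Bmp4, all 20 genes of BMP signalling were tested, 10 above and 10 below 0 for CTX minus Control, and none was called. Grem1, a secreted BMP antagonist, had the largest difference of the list. It had 1.06, 3.76 and 24.8 FPKM in CTX_HCQ, 10.1, 18.7 and 12.9 FPKM in CTX and 5.68, 0.43 and 1.37 FPKM in Control, a CTX minus Control difference of 2.35 (SE 0.82, adjusted p = 0.639 by limma). Bmp6, a BMP ligand of granulosa cells and oocytes, had 7.94, 10.9 and 8.57 FPKM in CTX and 11.9, 17.6 and 13.5 FPKM in Control, a difference of -0.59 (SE 0.21, adjusted p = 0.639 by limma).

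Bambi, a decoy receptor, averaged 2.93 ± 0.531 FPKM in CTX_HCQ, 4.32 ± 0.852 in CTX and 2.9 ± 0.371 in Control, and its CTX libraries lay above all others. Against Control, 4 of the 20 BMP genes were higher and 5 lower in CTX without overlap, where 8.72% and 11.0% of all tested genes were. Smad7, an inhibitor of receptor signalling, had 10.7, 6.74 and 12.0 FPKM in CTX_HCQ, 4.52, 6.26 and 5.44 FPKM in CTX and 6.44, 6.87 and 6.84 FPKM in Control. Its CTX_HCQ minus CTX difference was 0.73 (SE 0.21, adjusted p = 0.598 by limma), and 3.45% of tested genes had all CTX_HCQ libraries above all CTX libraries. Gdf9, the oocyte signal that acts on granulosa cells and through them on the theca, averaged 53.1 ± 14.8 FPKM in CTX_HCQ, 61.6 ± 12.3 in CTX and 58.4 ± 15.3 in Control, so oocyte RNA was present in every group.

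Ihh and Cyp17a1 ranked the 9 libraries alike, with a Spearman correlation of 0.95, and both were highest in CTX_HCQ 3 and lowest in Control 2. This was the highest value among all pairs of the 9 genes, followed by Hhip and Insl3 at 0.93. Ihh had 0.67 with Gli1, 0.62 with Hhip, 0.42 with Dhh and -0.25 with Ptch1. Outside the 9 genes, the order of Ihh was most like that of Arhgef2 (Spearman 0.97), Kctd15 (0.95) and Cnih2 (0.93), among 7952 genes with a mean of at least 5 FPKM. Arhgef2 and Kctd15 were also, outside the 9, the genes most like Cyp17a1, at 0.98 and 0.93, followed by Msrb3 at 0.90. Arhgef2 ran between 4.35 and 7.42 FPKM and Kctd15 between 4.27 and 9.15 FPKM, ranges far narrower than the 77.9-fold range of Cyp17a1. The genes most like Dhh were Ubqln4 (0.97), Cdc25b (0.95) and Stx2 (0.93), and those like Ptch1 included Scamp1 (0.92) and Snrk (0.92). For Gli1 they were Arpin (0.92), Mast2 (0.88) and Nkd1 (0.87). Nr2f2 was most like Snrpe (0.93), Sec62 (0.92) and Smim10l1 (0.92), and Bmp4 most like Fhdc1 (0.98), Lpcat4 (0.97) and Adamts10 (0.95). With 9 libraries and 7952 genes compared, values of this size describe the order in these libraries, which the same depth and scaling also enter, and carry no p.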

How the data were processed

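The authors deposited 1 table of FPKM for 9 mouse granulosa cell libraries, 3 per group. The tools are named in the submitters' processing notes without roles or settings: DESeq2 1.20.0, featureCounts 1.5.0-p3, HISAT2 2.0.5 and fastp 0.23.2, with build GRCm39 (mm39). Strandedness is not given in these sources. Symbols came from GENCODE M21, matching 52073 of 56748 identifiers and 14144 of 14431 tested genes.

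Values were analysed as log2(FPKM + 1). Genes that reached 1 FPKM in 3 or more of 9 libraries were fitted by group in limma 3.58.1 under R 4.3.3, with all libraries in 1 model and variances following a trend on expression, with Benjamini-Hochberg adjustment over all tested genes and a threshold of 0.05. From the FPKM and exon lengths, read numbers that were whole to within 0.02 were recovered for 14430 tested genes, 13578 with the annotated length and 852 with a searched one. The library sizes that the FPKM imply differ from the recovered totals, so how the authors scaled libraries is not known. Within groups the chi-square of recovered reads per degree of freedom was 15.3 to 160, so no libraries agreed within sampling noise. The fit was tested on simulated data.

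The 9 genes and all lists were chosen with earlier results of these data known. Named genes followed a rule: the 9 genes, the 3 genes most alike each of the 7 that passed the filter, the 4 and 2 genes of smallest p per list in CTX against Control and CTX_HCQ against CTX, and Smo, Gli2, Gli3, Cyp11a1, Lhcgr, Star and Gdf9. A few genes under this rule are not reported here. Shh, Disp1, Rxfp2, Foxf1, Prdm1 and the markers Aldh1a1, Col1a1, Dcn and Mgp were named after their values were seen. Alternatives covered the pseudocount, filter, scaling, groups in the fit, leaving out each library, a replicate block and voom applied to the recovered reads; 1 was added after seeing the data (without CTX 3 and CTX_HCQ 3).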

Additional observations from a re-analysis of the deposited data

How the results depend on the processing

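The count of genes called was 0 in every comparison under the other pseudocount, filters, scalings, the 2-group fit, voom on recovered reads and without CTX 3 and CTX_HCQ 3, the last chosen after seeing the data. With 1 library left out at a time it ran from 0 to 13 for CTX against Control and from 0 to 10 for CTX_HCQ against CTX, both highest counts without Control 1, and was 0 to 0 for CTX_HCQ against Control. With the replicate number as a block, 0 genes were called in each comparison. Same-numbered libraries correlated at -0.457 to 0.135 in their deviations from group means, with 3 of 9 pairs over 0.1. Of the 9 libraries, 0 correlated best with their own number. Deviations sum to 0 within a group of 3, so these correlations cannot settle whether the numbers pair the libraries.

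Of 21 differences of the 7 modelled genes, 9 kept their sign in every alternative (the 3 of Ihh, the 3 of Dhh, Cyp17a1 for both drug groups against Control and Ptch1 for CTX_HCQ against Control) and 12 changed it in at least 1. Of 372 values of these differences, 1 moved by over 1 SD of the libraries within groups. This was Ptch1 for CTX_HCQ against CTX, at -0.44 without CTX 3 and CTX_HCQ 3, and the cause was not tested. With 3 libraries per group, leaving out 1 library cannot move a difference by more than this SD. The count therefore carries no information on those alternatives. Depth limits Insl3 (1 to 22 reads) most, then Hhip, Bmp4 and Gli1. It also limits Cyp17a1 in CTX_HCQ 1, Control 2 and Control 3, at 44, 29 and 45 reads. Intervals are not given because 3 libraries per group set the error.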
